A study of Rattus norvegicus with 8 samples.

Results

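The genes for the mu, delta, kappa and nociceptin opioid receptors (Oprm1, Oprd1, Oprk1 and Oprl1) and for the type 1 cannabinoid receptor (Cnr1) were described in single nuclei of rat nodose ganglia. The 5 genes were taken by symbol from the 30560 genes of the deposited gene list, where each has 1 entry (Oprm1 ENSRNOG00000018191, Oprd1 ENSRNOG00000010531, Oprk1 ENSRNOG00000007647, Oprl1 ENSRNOG00000016768, Cnr1 ENSRNOG00000008223). Nuclear RNA was counted as unique molecular identifiers (UMIs) with a combinatorial barcoding kit, and levels are given in CPM, a gene's UMIs divided by all UMIs of the same nuclei and put on the usual CPM scale. The animals were untreated Long Evans rats of 8 weeks, 18 males and 18 females, with no genetic change or drug named in the labels. There were 4 groups, male left, male right, female left and female right, each with 3 pools, and a pool combined the ganglia of 1 side from 6 rats. ML1 stands for the pool labelled male, left, replicate 1, and the other 11 pools are written in the same way. Since 18 rats per sex fill 3 pools of 6 on either side, left and right pools would draw on the same animals, but the labels do not tie a left pool to a right one.

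These receptors are G protein-coupled receptors of the Gi/o class. When an agonist binds, the G protein lowers adenylyl cyclase activity, opens inwardly rectifying potassium channels and reduces the opening of presynaptic calcium channels, and RGS proteins, GRK kinases and arrestins end the signal. Mu, delta and kappa receptors bind enkephalins, endorphins and dynorphins, the nociceptin receptor binds nociceptin, and the cannabinoid receptor binds anandamide and 2-arachidonoylglycerol. The nodose ganglion holds the cell bodies of vagal sensory neurons from the heart, lung and gut, where opioids and cannabinoids are known to damp cough, emesis and satiety signals. It is joined to the jugular ganglion, whose neural crest-derived neurons resemble somatic pain and touch neurons, while nodose neurons derive from the epibranchial placodes.

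The filters left 36738 of 36741 nuclei, with a median of 2680 UMIs, and pools held 7139364 to 19456287 UMIs. Clustering was done without the 5 receptor genes. It gave 26131 neurons in 24 subclusters, of which 23463 nuclei in 18 subclusters were nodose-like and 2472 in 5 were jugular-like. The other 196 neurons formed 1 subcluster led by Kcnj6 and Poteg. Among the markers, P2rx2 was at 102 CPM in nodose-like against 14.8 CPM in jugular-like neurons, and Prdm12 was at 1.29 against 104 CPM. The nodose marker P2ry1 went the other way, at 7.68 against 11.5 CPM, while all other nodose markers were higher in nodose-like neurons. All jugular markers were higher in jugular-like neurons, but by little for Wfdc2 (4.72 against 4.76 CPM) and Gfra2 (66.9 against 82.8 CPM). The same markers named the classes, so their levels cannot check the names. Jugular-like neurons made up 1.58% (ML3) to 22.6% (ML1) of a pool's neurons. Non-neuronal nuclei comprised 2144 satellite glia-like, 1343 myelinating Schwann cell-like, 544 endothelial-like, 537 mural-like, 314 skeletal muscle-like and 53 fibroblast-like nuclei, and the mural-like cluster was also led by endothelial genes. A further 5672 nuclei in 8 subclusters stayed unnamed, most of which carried neuron markers together with markers of another class. The libraries shared 1865 barcode combinations across sublibraries. The labels of 2 pools did not match the Y-linked genes: ML1 had 2.88 CPM of 4 Y-linked genes, as the female-labelled pools FL2 to FR3 did (2.73 to 3.95 CPM), and FL1 had 88.6 CPM, as the other male-labelled pools did (84.4 to 91.3 CPM). Sex is therefore written as labelled, and results were repeated without both pools. Gene lengths on the build of the files were not used here, so levels are compared between cells and not between genes.

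The first comparison set nodose-like against jugular-like neurons of the same pools. Oprm1 and Cnr1 were higher in nodose-like neurons, and Oprd1, Oprk1 and Oprl1 were higher in jugular-like neurons. All 5 genes passed the test (edgeR quasi-likelihood F test with pool as a block, Benjamini-Hochberg adjusted over the 11936 genes tested, called at an adjusted p under 0.05). In that comparison 37.4% of all genes were called, 19.9% higher and 17.5% lower in nodose-like neurons, so that a call by itself was common.

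Oprm1, whose product is the main target of morphine, had 559, 725 and 835 CPM in nodose-like neurons (lowest, median and highest of 12 pools) and 225, 305 and 445 CPM in jugular-like neurons. The 2 classes did not overlap in any pool. The log2 difference was 1.13 ± 0.06 (SE, adjusted p = 4.14e-20). Cnr1 had 110, 131 and 153 CPM in nodose-like and 20.2, 47.2 and 93.5 CPM in jugular-like neurons, again with no overlap. Its log2 difference was 1.36 ± 0.09 (SE, adjusted p = 8.89e-17).

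Oprd1, the enkephalin-preferring delta receptor gene, showed the opposite order. It had 0.40, 1.62 and 1.96 CPM in nodose-like neurons and 3.22, 12.6 and 26.5 CPM in jugular-like neurons. The lowest jugular-like value lay above every nodose-like value, but it came from FL1 with 61 jugular-like nuclei and 310225 UMIs of all genes. ML3 had 23 such nuclei and 98765 UMIs. The Oprd1 values of both pools, and with them the full separation, thus rest on very few Oprd1 UMIs. The log2 difference was -3.19 ± 0.22 (SE, adjusted p = 2.78e-15), on 142 UMIs in nodose-like and 134 UMIs in jugular-like neurons. The nodose-like level of 1.57 CPM (summed over pools, exact Poisson 95% interval 1.32 to 1.85 CPM, counting error only) was no higher than in satellite glia, at 2.66 CPM (1.65 to 4.07), or in mural cells, at 2.46 CPM (0.51 to 7.18). Whether it is free RNA was not tested.

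Oprk1, the dynorphin receptor gene, had 7.37, 9.23 and 15.9 CPM in nodose-like and 0, 29.7 and 66.3 CPM in jugular-like neurons. The ranges overlapped, and the value of 0 came from ML3 with its 23 jugular-like nuclei. The log2 difference was -1.55 ± 0.16 (SE, adjusted p = 1.87e-10). Oprl1 had 5.36, 8.37 and 10.1 CPM in nodose-like and 5.39, 16.0 and 37.9 CPM in jugular-like neurons, with overlapping ranges and a log2 difference of -1.09 ± 0.17 (SE, adjusted p = 7.11e-07). The direction and the call held for all 5 genes under each of the 19 alternatives that gave a value (18 for Oprd1).

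**Figure D1:**
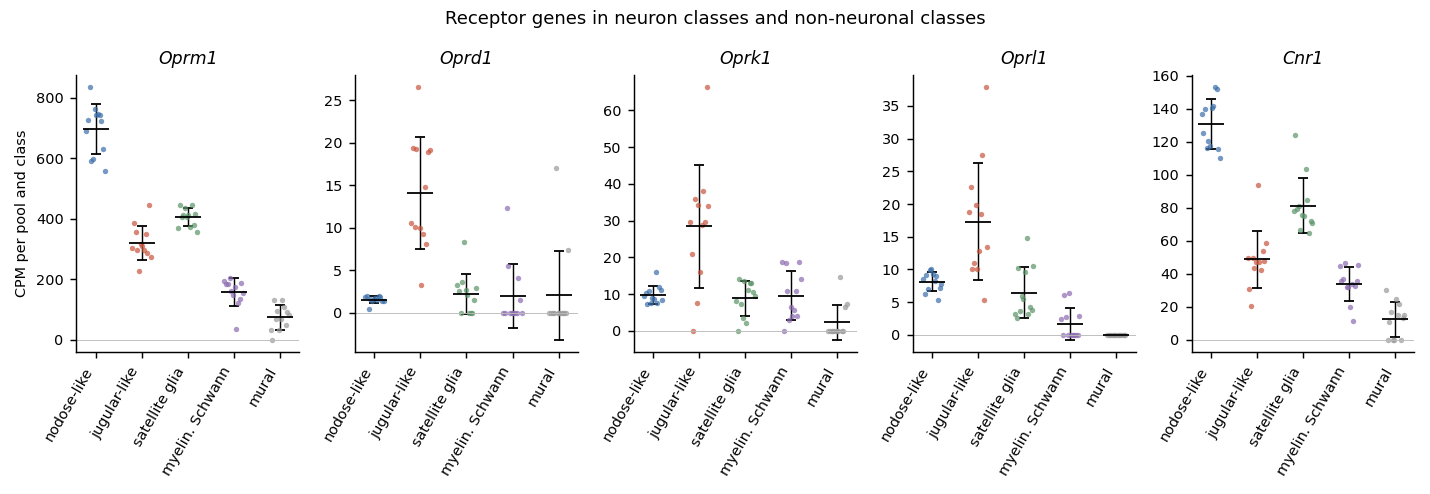
CPM of the 5 receptor genes (vertical axis, a scale of its own for each gene) in 2 neuron classes and 3 non-neuronal classes (horizontal axis), 1 point per pool with at least 20 nuclei of the class, bars mean ± SD over those pools. Oprm1 and Cnr1 are highest in nodose-like neurons and Oprd1, Oprk1 and Oprl1 in jugular-like neurons, where the spread between pools is widest.

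Within each class the receptors were spread unevenly over the subclusters, which are named here by their leading genes and given as mean ± SD over the pools with at least 10 nuclei of the subcluster (12 pools unless stated). Oprm1 was highest in Cysltr2-Cyp26b1 neurons at 1362 ± 183 CPM, in Spp1-Kcna1 neurons at 1348 ± 305 CPM and in Itm2a-S1pr3 neurons at 1114 ± 151 CPM. The leading genes of Spp1-Kcna1 neurons include the neurofilament gene Nefh, which need not mark all their nuclei. In the first clustering, an Spp1-Kcna1 cluster held 693 nuclei, but 244 with the receptor genes left in. Another cluster of 453 nuclei was then led by Dsp, F2r and Stom, with Oprm1 among its leading genes. How many of those lie in the Spp1-Kcna1 subcluster was not tested. The 3 subclusters with the most Oprm1 UMIs were Cysltr2-Cyp26b1, Itm2a-S1pr3 and the large Fhip1a-Kirrel3 subcluster. Together they held 27.4% of all neurons and 55.0% of their Oprm1 UMIs. Below Itm2a-S1pr3 neurons the means fell gradually, through Edn3-Chrdl1 (890 ± 120 CPM), Hunk-Pde1a (750 ± 112 CPM), Gdpd4-Shisa6 (669 ± 130 CPM), Hmcn1-Agtr1a (639 ± 55.4 CPM) and Ddc-Slc6a2 neurons (608 ± 121 CPM). They ended at 87.3 ± 46.8 CPM in Pcdh15-Ndst4 and 73.8 ± 42.2 CPM in Kcnj6-Poteg neurons (7 pools). The 2 lowest lay near the 76.9 CPM of mural cells, the lowest non-neuronal class. Satellite glia had 403 CPM and endothelial cells 317 CPM (summed over pools), above many of the neuron subclusters.

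Neighbours in the order of means were compared within pools by a two-sided exact sign-flip permutation test, adjusted over the 108 pairs of all 5 genes that shared at least 6 pools. For Oprm1, 1 of 21 pairs differed beyond the spread: Itm2a-S1pr3 neurons exceeded Edn3-Chrdl1 neurons by 224 ± 156 CPM (SD of the difference), in 12 of 12 pools (exact permutation, adjusted p = 0.0264). The first and second in the order, Cysltr2-Cyp26b1 and Spp1-Kcna1 neurons, differed by 13.9 ± 293 CPM and were higher in 6 pools each way (exact permutation, adjusted p = 1). The depth of the subclusters differed. Cysltr2-Cyp26b1 and Itm2a-S1pr3 neurons had medians of 6752 and 6267 UMIs and Spp1-Kcna1 neurons 1756 UMIs. Oprm1 CPM was higher in the nuclei above a subcluster's median depth than in those below it in 21 of 24 subclusters, but in Spp1-Kcna1 neurons it was 1629 CPM in the shallower and 1223 CPM in the deeper nuclei. With every nucleus thinned to 1000 UMIs, an Oprm1 UMI was left in 68.2% of Cysltr2-Cyp26b1, 58.6% of Spp1-Kcna1 and 63.3% of Itm2a-S1pr3 nuclei. The share was 5.8% in Pcdh15-Ndst4, 7.23% in mural, 29.5% in satellite glia and 24.3% in endothelial nuclei.

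Cnr1 shared 2 of these peaks. It was highest in Cysltr2-Cyp26b1 neurons at 305 ± 22.2 CPM, in Ddc-Slc6a2 neurons at 302 ± 81.3 CPM, and in Spp1-Kcna1 neurons at 237 ± 55.5 CPM. Ddc-Slc6a2 neurons met the rule for nodose-like neurons, but 4 sympathetic neuron markers were also high there and its leading genes include the catecholamine genes Slc6a2, Th and Ddc. Gdpd4-Shisa6 neurons followed at 187 ± 30.9 CPM and Itgae-Chrm2 neurons at 152 ± 19.0 CPM. Itm2a-S1pr3 neurons had rank 3 for Oprm1 but rank 8 for Cnr1, at 112 ± 17.0 CPM. The lowest level was in jugular-like Htr4-Hs6st2 neurons at 16.0 ± 11.6 CPM (8 pools), near the 14.7 CPM of mural cells. Satellite glia had 77.3 CPM and endothelial cells 52.4 CPM (summed over pools). Of 21 neighbouring pairs 1 differed beyond the spread, Spon1-Tmem233 above Tafa4-Esr1 neurons by 28.2 ± 19.6 CPM in 12 of 12 pools (exact permutation, adjusted p = 0.0264). Across the 24 subclusters the Pearson correlation of Oprm1 and Cnr1 on log2(CPM + 5) was 0.40, a description over subclusters that share all libraries.

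Oprk1 had means under 5 CPM in 13 of 24 subclusters. It was highest in Hmcn1-Agtr1a neurons (also Ntrk3) at 52.1 ± 28.9 CPM, in the peptidergic Tac1-Calca neurons at 52.0 ± 29.8 CPM and in Nxph1-Rnf220 neurons at 41.9 ± 10.4 CPM. These 3 do not differ beyond their spread: the neighbouring differences were 0.12 ± 32.6 and 10.1 ± 32.5 CPM (exact permutation, adjusted p = 1 for both). Ddc-Slc6a2 neurons had 24.5 ± 17.6 CPM, Itgae-Chrm2 neurons 18.3 ± 8.5 CPM and Cysltr2-Cyp26b1 neurons 17.2 ± 8.0 CPM. Among the jugular-like subclusters the Tac1-Calca neurons carried 243 of the 261 Oprk1 UMIs, while Tafa1-Ccdc172 neurons had 2.1 ± 3.9 CPM (11 pools) and Htr4-Hs6st2 neurons 2.4 ± 3.4 CPM (8 pools). Most Oprk1 UMIs of jugular-like neurons thus came from 1 subcluster. Trpm8-Plcd4 neurons had 15.8 ± 43.3 CPM (9 pools) on 6 UMIs, too few to place them.

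The highest means of Oprd1 were in 3 jugular-like subclusters. Tafa1-Ccdc172 neurons had 20.9 ± 14.2 CPM (11 pools, 75 UMIs), cold-sensor gene bearing Trpm8-Plcd4 neurons 16.6 ± 20.2 CPM (9 pools, on only 8 UMIs) and Tac1-Calca neurons 11.8 ± 5.4 CPM (12 pools, 47 UMIs). In the 21 other subclusters the mean stayed under 5 CPM, and the nodose-like ones did not rise above 2.9 ± 3.0 CPM. The step from Tac1-Calca neurons to the next subcluster was 8.85 ± 7.21 CPM, in 10 of 12 pools, and missed the threshold after adjustment (exact permutation, p = 0.0039, adjusted p = 0.106). Tafa1-Ccdc172 neurons, with the highest mean for Oprd1, had rank 14 for Oprk1. The order of these 3 jugular-like subclusters for Oprd1 did not pass the test (exact permutation, adjusted p = 1 for both neighbouring pairs). Both pairs shared only 9 pools, too few for any difference to pass after adjustment, so the test could not order them.

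Oprl1, the nociceptin receptor gene, was spread over both neuron classes. Its highest means were 25.6 ± 15.3 CPM in Spp1-Kcna1, 25.1 ± 19.6 CPM in Trpm8-Plcd4 (9 pools), 23.0 ± 15.2 CPM in Tac1-Calca and 22.5 ± 10.04 CPM in Gabrg1-Syndig1 neurons. None of its 22 tested pairs of neighbours passed the test (12 pools allow an exact permutation p of 0.000488 at the smallest). The pairs of Trpm8-Plcd4 with Spp1-Kcna1 and with Tac1-Calca neurons shared only 9 pools. That is too few for any difference to pass after adjustment, so the test could not order them. Gabrg1-Syndig1 and Pcdh15-Ndst4 neurons (16.8 ± 11.03 CPM), which were among the 3 lowest for Oprm1, had ranks 4 and 5 for Oprl1. Cysltr2-Cyp26b1 neurons, first for Oprm1 and Cnr1, had 8.6 ± 2.7 CPM of Oprl1.

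**Figure D2:**
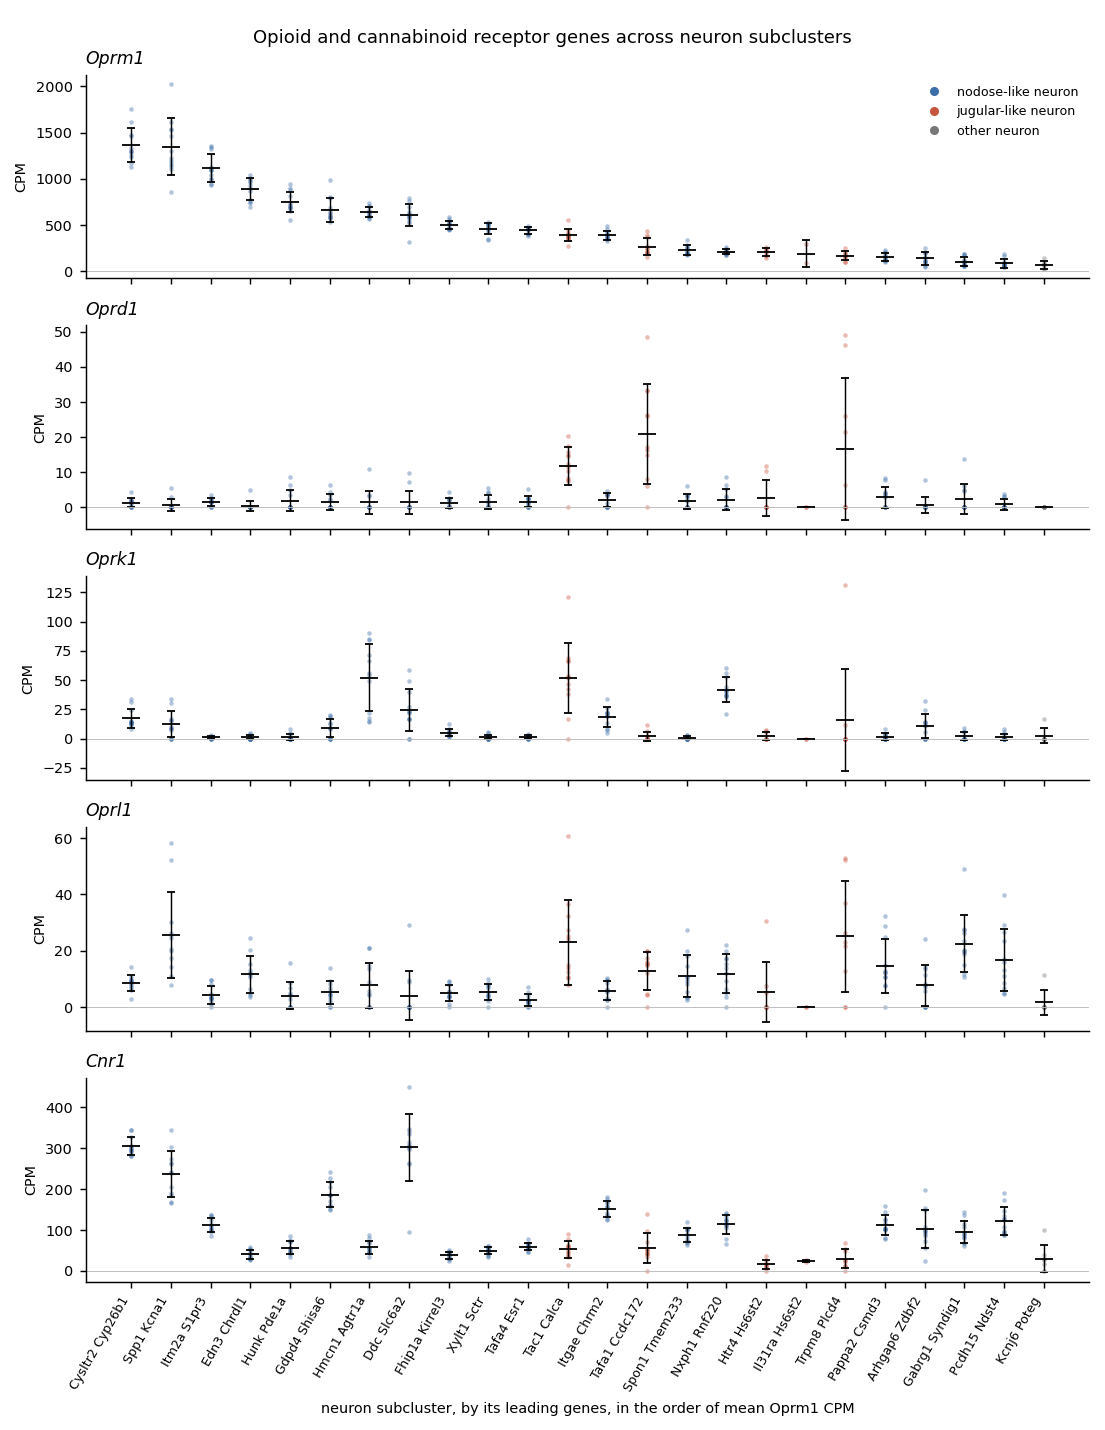
CPM of the 5 receptor genes (vertical axis, a scale of its own for each gene) in 24 neuron subclusters named by their first leading genes (horizontal axis, in the order of mean Oprm1 CPM), 1 point per pool with at least 10 nuclei, bars mean ± SD. Oprm1 falls gradually from left to right, Cnr1 peaks in 3 subclusters, Oprk1 in 3 others, and Oprd1 rises in 3 jugular-like subclusters.

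Genes whose pattern over the 24 subclusters was most like that of a receptor were picked by Pearson correlation of log2(CPM + 5) among 13504 genes with at least 5 CPM in some subcluster. The points share libraries and differ in depth, and the values are a description. For Oprm1 they were Atp8a1 (r = 0.88), Ngb (0.86) and Ngfr (0.86), which encode a phospholipid flippase, neuroglobin and the p75 neurotrophin receptor. For Oprd1 they were Morc1 (r = 0.86), Bcl11b (0.85) and Insrr (0.85). For Oprk1 they were Ccn3 (r = 0.71), Mmp17 (0.70) and Slc18a2 (0.67), the last the vesicular monoamine transporter gene. For Oprl1 they were Racgap1 (r = 0.81), Bscl2 (0.80) and Cpne6 (0.79), and for Cnr1 Gprin1 (r = 0.76), ENSRNOG00000004676 (0.76) and Bles03 (0.76).

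At 1000 UMIs per nucleus, UMIs of both Oprm1 and Cnr1 were found in 998 of 25089 neurons, where the shares of the 2 genes within each subcluster multiply to 965. Oprm1 with Oprk1 was found in 85 nuclei against 86.5 by the same product, and Oprm1 with Oprd1 in 12 against 18.9. Oprd1 with Oprk1 was found in none, against 1.12. These counts are descriptions with no test, and those of the rarer genes rest on few nuclei.

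The next comparison set all neurons against satellite glia, the glia that wrap their cell bodies, which showed how far receptor UMIs were seen outside neurons. Oprm1 had 529, 671 and 826 CPM in neurons (lowest, median and highest of 12 pools) and 356, 409 and 446 CPM in satellite glia, with no overlap and a log2 difference of 0.84 ± 0.05 (SE, edgeR with pool as a block, adjusted p = 1.25e-18). Cnr1 had 104, 114 and 147 CPM in neurons and 64.7, 76.8 and 124 CPM in satellite glia, with overlapping ranges and a log2 difference of 0.77 ± 0.07 (SE, adjusted p = 6.66e-13). Oprl1 was higher in neurons by 0.62 ± 0.21 (SE, log2, adjusted p = 0.00816) and Oprk1 by 0.57 ± 0.20 (SE, log2, adjusted p = 0.0115). Among all 11944 genes tested 68.6% were called, 33.4% as higher and 35.1% as lower in neurons. Oprd1 did not pass the filter on low counts, and without that filter its log2 difference was 0.24 ± 0.33 (SE, adjusted p = 0.627). The calls of Oprl1 and Oprk1 ended when unnamed nuclei were counted in both groups (edgeR adjusted p = 0.391 and 0.103). Unnamed subclusters of the neuron clusters were then added to the neurons, and unnamed glia-like nuclei that carry neuron markers to the glia. Which addition ended the calls was not tested. The call of Oprk1 also ended without ML1 and FL1 (edgeR adjusted p = 0.0695).

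Neuron RNA can be counted in other nuclei as free RNA from broken cells or where nuclei were read together. Neuron markers were therefore set beside the receptor genes as a guide, and the source of their UMIs outside neurons was not tested. The 13 neuron markers used to name neurons stood in satellite glia at 31.3% to 128% of their level in neurons, in myelinating Schwann cells at 16.3% to 65.6%, in endothelial cells at 30.6% to 93.1% and in mural cells at 8.64% to 29.1%. Oprm1 lay within those ranges in all 4 classes, at 62.9%, 26.0%, 49.5% and 12.01% of its level in neurons, and so did Cnr1, at 63.6%, 29.9%, 43.2% and 12.1%. These ranges are wide, and whether any Oprm1 or Cnr1 UMIs outside neurons come from those cells was not tested. The Oprm1 level of jugular-like neurons, 300 CPM summed over pools, lay below that of satellite glia, 403 CPM, and a UMI was left in 22.8% of jugular-like against 29.5% of satellite nuclei at 1000 UMIs (medians before thinning 2698 and 2411 UMIs). How much of the jugular-like Oprm1 signal is free RNA was not tested.

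Oprk1 in myelinating Schwann cells was at 11.3 CPM (38 UMIs, exact Poisson 95% interval 8.00 to 15.5 CPM), 100.5% of the 11.2 CPM in neurons, above the range of the 13 neuron markers there. At 1000 UMIs it was left in 1.34% of Schwann nuclei (exact binomial 95% interval 0.77 to 2.17%) and in 1.00% of neurons. Over the 12 pools the Schwann level was 0, 8.66 and 18.7 CPM (lowest, median and highest). In mural cells Oprk1 had 3 UMIs, or 2.46 CPM (exact Poisson 95% interval 0.51 to 7.18), and Oprl1 had 0 UMIs in 537 nuclei, which allows a share of nuclei with a UMI of up to 0.559%. In skeletal muscle Oprk1 was at 101.9% of its level in neurons on 6 UMIs, also above the neuron markers (19.4% to 87.8%). Oprd1 lay at 64.8% to 119% of its low level in neurons in the 4 classes, on 3 to 21 UMIs each, and was above the marker range in endothelial cells (119%) and mural cells (89.2%), on 5 and 3 UMIs.

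**Figure D3:**
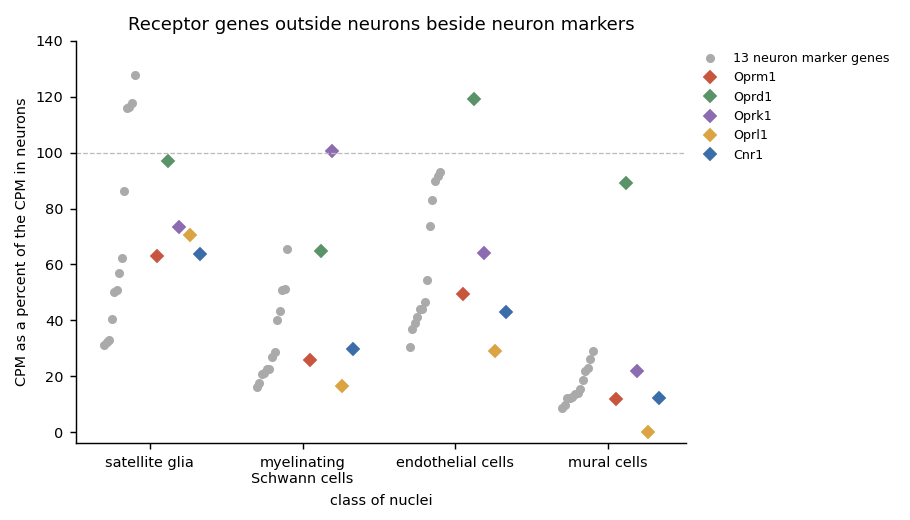
Level of a gene in 4 non-neuronal classes (horizontal axis) as a percent of its CPM in neurons (vertical axis), UMIs summed over pools: grey points are the 13 neuron marker genes and coloured diamonds the 5 receptor genes. Oprm1 and Cnr1 lie within the spread of the neuron markers in every class. Oprk1 lies above it in myelinating Schwann cells at 100.5%. So does Oprd1, on few UMIs, in endothelial and mural cells at 119% and 89.2%, where Oprl1 lies below it at 29.15% and 0%.

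The study's design contrasts left with right ganglia. No receptor gene was called in neurons (edgeR with labelled sex as a term, 14038 genes tested). Of all genes 0.107% were called, 0.0784% higher and 0.0285% lower on the right. Oprm1 had 590, 702 and 826 CPM in the 6 left pools (lowest, median and highest) and 529, 600 and 703 CPM in the 6 right pools. The ranges overlapped, and the log2 difference of right over left was -0.20 ± 0.09 (SE, edgeR adjusted p = 0.746). Cnr1 had 114, 131 and 147 CPM on the left and 104, 112 and 146 CPM on the right, with a log2 difference of -0.17 ± 0.08 (SE, adjusted p = 0.762), and 5 of 6 right pools lay below the lowest left pool. Oprl1 differed by -0.24 ± 0.13 (SE, adjusted p = 0.795), Oprk1 by -0.06 ± 0.19 (SE, adjusted p = 0.986) and Oprd1 by 0.06 ± 0.28 (SE, adjusted p = 0.997), all on the log2 scale.

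The mean makeup of the neurons also differed between the sides, which was described without a test. Cysltr2-Cyp26b1 neurons, the subcluster with the highest level of both Oprm1 and Cnr1, made up 9.85 ± 2.07% of left and 6.41 ± 1.96% of right neurons (SD over 6 pools a side). The ranges overlapped, at 7.48% to 12.4% on the left and 4.11% to 9.66% on the right. Within that subcluster Oprm1 was at 1366 ± 214 CPM on the left and 1357 ± 167 CPM on the right, and Cnr1 at 298 ± 16.3 and 311 ± 26.7 CPM. In all other neurons Oprm1 was at 565 ± 59.9 and 507 ± 68.0 CPM and Cnr1 at 93.4 ± 8.18 and 86.8 ± 8.51 CPM. Of the 19 subclusters with at least 10 nuclei in every pool, the right mean was the lower in 16 for Oprm1 and in 13 for Cnr1. Ddc-Slc6a2 neurons, with rank 2 for Cnr1, made up 1.13% of left and 1.55% of right neurons. The part of this makeup in the side difference was not tested. Jugular-like neurons made up 1.58% to 22.6% of left and 2.30% to 12.4% of right neurons. In nodose-like neurons alone the log2 differences were -0.22 ± 0.08 for Oprm1 and -0.21 ± 0.07 for Cnr1 (SE, edgeR, adjusted p = 0.339 for both).

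The share of neurons with a receptor UMI was also compared by side, with nuclei thinned to 1000 UMIs because median depth differed between pools (2102 to 3936 UMIs), which left out 1042 neurons. An Oprm1 UMI was left in 37.9 ± 3.26% of left and 35.1 ± 2.22% of right neurons (SD, n = 6 pools each, two-sided exact permutation with sides relabelled within labelled sex, p = 0.14, adjusted p = 0.35), against 63.9% and 59.6% before thinning. A Cnr1 UMI was left in 10.1 ± 1.38% and 8.54 ± 0.85% (n = 6 pools each, exact permutation, p = 0.03, adjusted over the 5 genes p = 0.15). Without FR1 the Cnr1 difference had an adjusted p of 0.025, and with nuclei thinned to 2000 UMIs, which left out 7988 neurons, it was -1.28 percentage points with an adjusted p of 0.688, both by the same exact permutation. Mural nuclei kept an Oprm1 UMI in 7.23% and a Cnr1 UMI in 0.21%. The other non-neuronal classes varied, with 29.5% and 6.55% in satellite glia and 24.3% and 5.14% in endothelial nuclei. The other 3 genes were left in 0.26% to 1.09% of neurons on either side, with adjusted p = 0.775 to 0.78 (exact permutation).

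**Figure D4:**
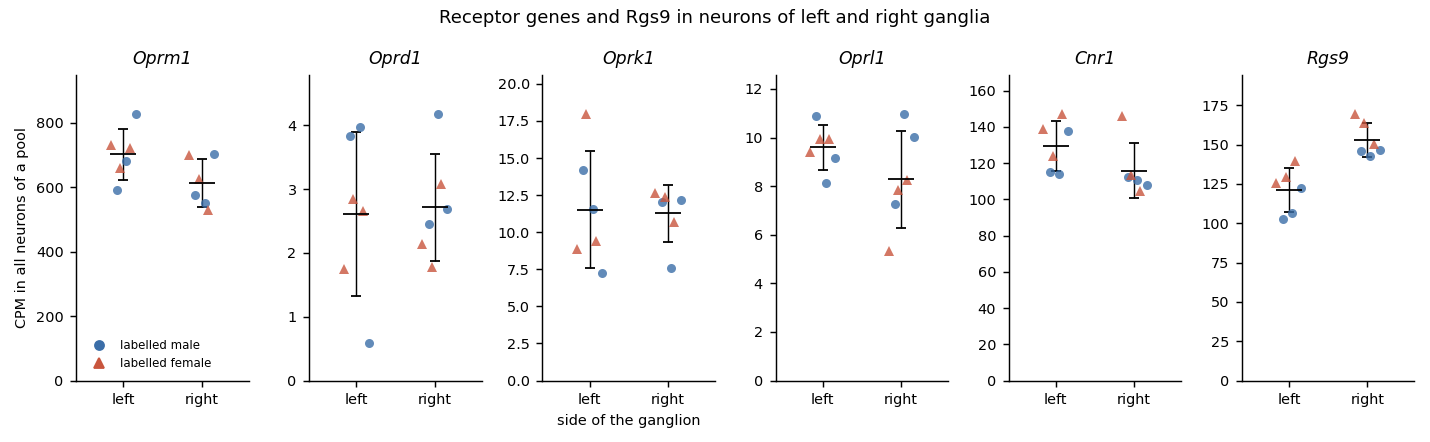
CPM of the 5 receptor genes and of Rgs9 in all neurons of a pool (vertical axis from 0, a scale of its own for each gene) by side (horizontal axis), 1 point per pool, circles labelled male and triangles labelled female, bars mean ± SD of 6 pools. The sides overlap for every receptor gene, while for Rgs9 the highest left pool (140 CPM) lies below the lowest right pool (143 CPM).

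By labelled sex no receptor gene was called either (edgeR with side as a term, 0.0356% of genes called, 0.0142% higher and 0.0214% lower in pools labelled female). The largest difference was in Oprd1, at 2.95 ± 1.36 CPM in pools labelled male and 2.38 ± 0.56 CPM in pools labelled female (SD, n = 6 each, log2 difference -0.39 ± 0.28 SE, edgeR adjusted p = 0.475). Cnr1 was at 116 ± 10.7 and 129 ± 17.7 CPM (SD, n = 6 each, log2 difference 0.13 ± 0.08 SE, edgeR adjusted p = 0.392), and Oprm1 at 654 ± 104 and 661 ± 75.5 CPM (SD, n = 6 each, edgeR adjusted p = 0.997). Without ML1 and FL1, whose Y-linked genes go against their labels, no receptor gene was called. The side difference did not depend detectably on labelled sex: 0% of the 14038 genes had a called interaction (edgeR), 565 had an unadjusted p under 0.05, and DESeq2 called 0 as well. The receptor gene with the largest interaction was Oprl1, at -0.40 ± 0.26 (SE, log2, adjusted p = 0.9999).

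The partners of these receptors were followed in 4 gene lists. Genes of these lists could take part in the clustering, so their counts between classes are descriptions beside the shares for all genes given above. Of 23 Gi/o transducers and regulators 23 were tested in nodose-like against jugular-like neurons, and 12 were higher and 5 lower (median log2 difference 0.21, against 0.03 over all genes tested). Rgs17, a negative regulator of Gi signalling, was at 223 ± 9.83 CPM in nodose-like and 41.9 ± 12.02 CPM in jugular-like neurons (SD, n = 12 pools, log2 difference 2.44 ± 0.08 SE). Rgs9 was at 149 ± 19.5 against 20.7 ± 10.04 CPM, while Rgs10 was at 2.97 ± 1.03 against 59.6 ± 17.3 CPM (n = 12 pools). These 3 had the smallest p of the list, and all 3 were measured in both classes at different levels.

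Of 13 effectors 12 were tested, 3 higher and 5 lower in nodose-like neurons (median -0.12). The P/Q-type calcium channel gene Cacna1a was lower, at 425 ± 33.8 against 941 ± 59.4 CPM, as was the adenylyl cyclase gene Adcy8, at 17.3 ± 3.27 against 40.6 ± 21.2 CPM, while Adcy2 was higher, at 497 ± 22.3 against 279 ± 32.7 CPM (SD, n = 12 pools). Of 15 genes of endocannabinoid synthesis, breakdown and related receptors 13 were tested, 1 higher and 4 lower (median -0.11). Mgll, which breaks down 2-arachidonoylglycerol, was at 43.4 ± 4.00 CPM in nodose-like and 142 ± 19.7 CPM in jugular-like neurons, opposite to Cnr1. Sgip1, whose product binds the cannabinoid receptor and slows its internalization, was higher, at 569 ± 21.4 against 368 ± 29.9 CPM. Trpv1 was lower (log2 difference -0.80 ± 0.07 SE) but is one of the markers that named jugular-like neurons.

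Of 10 genes of opioid peptides and their processing or breakdown 4 were tested, 1 higher and 2 lower in nodose-like neurons (median -0.15). Pcsk1, a prohormone convertase gene, was at 163 ± 17.7 against 97.8 ± 23.4 CPM, and Pcsk2 and Cpe were lower, at 373 ± 18.3 against 515 ± 63.1 and 163 ± 15.3 against 273 ± 27.2 CPM (SD, n = 12 pools). The peptide genes themselves were scarce. Penk, the enkephalin precursor gene, was at 2.07 CPM in neurons but reached 49.7 CPM in Hmcn1-Agtr1a neurons, the subcluster with the highest mean of Oprk1, and Pdyn, Pomc and Pnoc were at 0.10, 0.11 and 0.19 CPM in neurons.

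Between neurons and satellite glia, 9 effectors of 12 tested were higher in neurons and 2 lower (median log2 difference 1.18, against -0.04 over all genes tested), and 14 transducers and regulators of 23 were higher and 4 lower (median 0.37). Adcy2 (1.89 ± 0.06 SE, log2), Cacna1a (1.75 ± 0.05) and the N-type channel gene Cacna1b (1.64 ± 0.06) led the effectors, and Rgs7bp (1.63 ± 0.06), Rgs7 (1.70 ± 0.06) and Grk3 (1.52 ± 0.06) the regulators. Of the endocannabinoid list 7 of 13 tested were higher and 3 lower (median 0.25). The 2 with the largest fall in neurons encode enzymes that act on the precursors of anandamide, Abhd4 at 20.3 CPM in neurons and 232 ± 37.4 CPM in satellite glia and Napepld at 6.79 and 25.3 ± 5.13 CPM. Sgip1 was higher by 1.13 ± 0.05 (SE, log2). Of the opioid peptide list 3 of 4 tested were higher and 1 lower (median 0.64): Pcsk2 by 1.46 ± 0.05 and Cpe by 0.90 ± 0.06 (SE, log2) in neurons, and the enkephalin-degrading Mme at 5.33 CPM in neurons against 14.2 ± 4.33 CPM in satellite glia.

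By side, 1 gene of the 4 lists was called, Rgs9, whose product speeds the end of Gi/o signals. It had 103, 124 and 140 CPM in the 6 left pools (lowest, median and highest) and 143, 149 and 169 CPM in the 6 right pools, with no overlap. The log2 difference was 0.33 ± 0.06 (SE, edgeR adjusted p = 0.036), and it was 1 of 23 genes of its list, against 0.0784% of all genes called as higher. Rgs9 was highest in Xylt1-Sctr neurons (728.5 CPM), which express the cholecystokinin receptor gene Cckar and made up 4.37 ± 1.02% of left and 7.72 ± 0.90% of right neurons (SD, n = 6 pools each, no overlap). Within that subcluster Rgs9 was at 772 ± 101 CPM on the left and 719 ± 49.8 CPM on the right, and outside it at 93.3 ± 9.67 and 107 ± 6.13 CPM. The part of this makeup in the difference was not tested. The call was lost without ML1 and FL1 (log2 difference 0.29, edgeR adjusted p = 0.234) and without any 1 pool other than ML3, FL3 and FR3, with edgeR adjusted p = 0.0144 to 0.106 over the pools left out. In nodose-like neurons alone it was kept (0.29 ± 0.05 SE, edgeR adjusted p = 0.011). The median log2 difference by side lay between -0.06 and 0.01 in the 4 lists, against -0.01 over all genes tested. In the lists without a call, Pcsk2 at 386 CPM, Sgip1 at 550 CPM and Cacna1b at 793 CPM had the highest levels in neurons, with log2 differences of -0.06, 0.05 and -0.04. By labelled sex and in the interaction no gene of the 4 lists was called, and Pcsk2, Sgip1, Gnao1 (at 1039 CPM) and Cacna1b differed by sex by -0.02, -0.04, 0.00 and -0.09 on the log2 scale.

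Every pool was spread over the 8 sublibraries. Across these, Oprm1 in neurons was at 640 ± 14.7 CPM, Cnr1 at 121.5 ± 5.60, Oprk1 at 11.2 ± 0.87, Oprl1 at 9.01 ± 0.81 and Oprd1 at 2.77 ± 0.79 CPM (SD, n = 8). Over the 12 pools the SDs were 86.5, 15.5, 2.97, 1.64 and 1.04 CPM. The spread between pools was larger than that between sublibraries for each gene. A sublibrary's level averages over the pools, so a smaller spread is built into the design, and the 2 spreads do not separate animals from handling.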

How the data were processed

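Single nuclei of rat nodose ganglia were sequenced in 8 sublibraries, which hold the nuclei of 12 pools. Per the labels' protocols, nuclei were fixed and barcoded with Evercode version 2 kits and sequenced on a NextSeq 2000. The submitters' processing notes name R 4.3.2, Seurat 4.1.3 and the genome build mRatBN7.2, with no role given. The deposited matrix holds raw UMI counts per nucleus and gene made by the authors, and the deposited transcript and gene counts of each nucleus equalled the sums of the matrix in all 36741 nuclei. No aligner or barcode filter is named in the sources used here. The deposited nucleus table gives each nucleus its pool, from whose name sex, side and replicate were read.

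The receptor genes, the 4 gene lists and the marker lists were chosen with earlier results of these data known. A nucleus was kept if 300 or more genes were detected and mitochondrial UMIs did not exceed 5%. Scrublet called 2 doublets and hardly worked. Nuclei were clustered with scanpy 1.11.5 and leidenalg 0.10.2 (3000 variable genes, 30 components, 20 neighbours, resolution 1), first all and then neurons and others apart on residuals of 2000 genes, with the 5 receptor genes left out. A class was named from at least 3 markers at least 2-fold higher (1.5-fold for neurons against other nuclei, pseudocount 5 CPM) with at least 1 among the 10 leading genes for non-neuronal classes, limits set after the marker levels had been seen. Nodose-like subclusters needed 3 nodose markers above jugular-like neurons. Names mean likeness.

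UMIs were summed per pool and class (at least 20 nuclei) and tested with edgeR 4.0.16 under R 4.3.3 (TMM, filterByExpr, quasi-likelihood F test). DESeq2 1.42.0, RLE size factors, no filter, single pools left out, other clusterings and stricter doublet removal were alternatives. Counting nuclei of unnamed subclusters and taking nodose-like neurons alone were added after the data were seen. Exact permutation tests relabelled sides within labelled sex (400 relabellings, smallest p 0.005) or flipped signs within pools. Both kinds of test were run on simulated data first. Poisson and Clopper-Pearson intervals are at 95% and cover counting error only, and a count of 0 allows up to 3 counts. Named list genes are those called, at most 3 per list and comparison with the smallest p, or else the gene with the highest neuron level.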

Additional observations from a re-analysis of the deposited data

Results flagged for a closer look

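In 27 groups of pools or sublibraries checked for 1 value far from the others, 3 had one, where chance gives about 1 in 20. Among the right pools Cnr1 in neurons was highest in FR1, at 146 CPM, and among the pools labelled male it was highest in ML3, at 137 CPM. Oprm1 was highest in sublibrary 4, at 674 CPM, while the other sublibraries lay between 625 and 646 CPM. The 5672 unnamed nuclei, which were left out of the comparisons except in alternatives that counted some of them, held 582 CPM of Oprm1, 2.07 CPM of Oprd1, 10.5 CPM of Oprk1, 8.10 CPM of Oprl1 and 105 CPM of Cnr1, above what a count of 0 allows (0.12 CPM).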

How the results depend on the processing

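Low counts limit precision for jugular-like neurons of ML3 (23 nuclei), for Oprd1 (276 UMIs in neurons) and for the rarer subclusters, and pools rather than rats are the replicates. In the edgeR and DESeq2 fits no receptor gene was called by side, by labelled sex or in their interaction under any alternative run (the share of neurons with a Cnr1 UMI passed its own test by side without FR1), and the 5 calls between neuron classes held under all. For the alternatives that moved a value the cause was not tested.

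The number of genes called by side was 15. It was 60 with DESeq2, 45 with no low-count filter, 59 in nodose-like neurons alone, 3 without ML1 and FL1, 3 with a replicate block, and 4 to 16 with 1 pool left out. By labelled sex it was 5, against 501 with DESeq2, 623 with no low-count filter, 8 with the receptor genes left in the clustering, 36 without the top 5% of doublet scores, 40 without ML1 and FL1, 0 with unnamed mixed subclusters included (edgeR), 238 in nodose-like neurons alone, and 0 to 617 with 1 pool left out. Called steps in the order of subclusters were 5 at resolution 0.5 and 0 at resolution 2 (exact permutation, 11 at an unadjusted p under 0.05), against 2. Left and right pools with the same replicate number are not tied by the labels, and their deviations correlated at -0.077 to 0.152. For Rgs9, side in neurons had an edgeR adjusted p of 0.0722 with the replicate block and of 9.31e-05 to 0.234 over all alternatives.

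The values that changed sign were uncalled, and some of them moved widely. By side (log2), Oprd1 was -0.11 and Oprk1 0.0012 in nodose-like neurons alone, and with 1 pool left out they were -0.11 to 0.20 and -0.15 to 0.0927. By labelled sex, Oprm1 was 0.0007 with no low-count filter, 0.005 without the top doublet scores and -0.0547 to 0.0574 with 1 pool left out, Oprd1 was 0.0993 in nodose-like neurons alone, and Oprk1 was -0.0532 to 0.21 with 1 pool left out. In the interaction, Oprm1 was -0.0222 with unnamed mixed subclusters included and -0.0127 in nodose-like neurons alone, Oprd1 was 0.0587 without the top doublet scores, Oprk1 was -0.29 without ML1 and FL1 and -0.0007 in nodose-like neurons alone, and Cnr1 was 0.0461 without ML1 and FL1. With 1 pool left out the interaction was -0.13 to 0.15 for Oprm1, -0.41 to 0.34 for Oprd1, -0.10 to 0.52 for Oprk1 and -0.20 to 0.0892 for Cnr1.

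For shares of neurons with a UMI (right minus left, percentage points), Oprd1 was -0.14 not thinned and Oprk1 0.349 at 2000 UMIs, and Cnr1 was -1.28 at 2000 UMIs (exact permutation, adjusted p = 0.688). With 1 pool left out the difference was -0.0174 to 0.0508 for Oprd1, -0.0977 to 0.00869 for Oprl1 and -1.85 to -1.10 for Cnr1, which passed the threshold without FR1.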
